A study of Mus musculus with 8 samples.

Results

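The 46 genes described here encode glycoproteins and proteoglycans of the extracellular matrix other than collagens, and they were taken by symbol from the 55487 genes of the count table. They fall by role into 12 adhesive and matricellular glycoproteins, 13 proteins of elastic fibres and microfibrils, 4 latent TGF-beta binding proteins (LTBPs), 10 basement membrane proteins and 7 proteoglycans. The RNA came from MC38 tumors, a mouse colorectal carcinoma line grown under the skin, and from their stromal vascular fraction, which is what remained after tumor cells marked with GFP had been sorted away. The samples are 4 libraries with the genotype label Bmal1+/+ and 4 with the label Bmal1-/-, and Bmal1 encodes a transcription factor of the circadian clock. The deletion is in all cells of the host mouse and not in the implanted tumor cells, and neither label names a treatment. The question was how loss of this clock gene in the host changes stromal gene expression in tumors studied for fibrosis. Ages, sexes, collection times and whether each library came from a separate mouse are not given in the sources used here, so p-values measure only the spread between these samples, which may be technical.

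Library totals lay between 14054825 and 18449143 counts, and a count of 3, taken as the floor, corresponds to 0.163 to 0.213 CPM, counting error only. Counts of Bmal1 itself (Arntl) ran against the label, at 0.959 to 2.70 CPM in the Bmal1+/+ libraries and 30.1 to 34.9 CPM in those labelled Bmal1-/-. They cover the whole gene, so they do not show whether the deleted part was read. For this reason the second group is called by its label throughout. Dbp, a target of BMAL1, ran the way the labels say, with 66.9 to 113 CPM in the Bmal1+/+ libraries and 3.72 to 6.96 CPM in the others. Npas2, another clock gene, read 0.120 to 0.222 CPM in the Bmal1+/+ libraries and 31.1 to 42.2 CPM in the others. Whether the labels are right was not tested. Xist was at 842 CPM or more in every Bmal1+/+ library and at 0.75 CPM or less in the others, and Ddx3y, on the Y chromosome, had 0 counts in every Bmal1+/+ library, so sex and genotype label cannot be told apart in any result here. Against the labelled tissue, 12 hepatocyte genes summed to between 65818 and 114144 CPM (of a total scaled to 1e+06), Fap, a marker of tumor fibroblasts, never passed 7 counts, and the intestinal genes Cdx2 and Krt20 had at most 1 count. Replicate 4 labelled Bmal1-/- stood apart, with 36923 CPM over 9 acute phase genes where the other 7 libraries had 1827 to 4288 CPM.

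The matrix around cells is built from collagens and from the proteins described here. Fibronectin and the matricellular proteins bind cells through integrins and syndecans, fibrillins, fibulins and elastin form elastic fibres, and laminins, nidogens and perlecan form the sheet on which epithelial and endothelial cells sit. LTBPs tether latent TGF-beta, the main growth factor of fibrosis, to microfibrils, and small leucine-rich proteoglycans set the spacing of collagen fibrils. In liver and in tumors most of these proteins come from fibroblasts, stellate cells and endothelial cells, while hepatocytes also secrete the plasma form of fibronectin.

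Most of the matrix transcripts that could be compared were lower in the libraries labelled Bmal1-/-. Of the 46 genes, 36 had enough counts for edgeR's test, and 23 of these fell (63.9%), 2 rose and 11 did not pass an adjusted p of 0.05. Across all 14353 genes tested, 16.2% fell and 14.9% rose. The 2 that rose were Spon2 and Nid2. By the study's criterion, a log2 change of more than 1 in either direction with an unadjusted p under 0.05, 13 fell and 2 rose, against 8.71% and 5.41% of all genes tested. The fold change was negative for 33 of the 36 and positive for Spon2, Nid2 and Eln. The median log2 fold change of the 36 was -0.86, with a range from -2.26 for Postn to 4.56 for Spon2, and the median of all genes tested was 0.02. Every library labelled Bmal1-/- was below every Bmal1+/+ library for 22 of the 36 genes, which held for 16.8% of all genes tested, and above for 2, against 16.7%. Without replicate 4 labelled Bmal1-/-, 25 fell and 2 rose. Of all genes, 2501 fell and 2212 rose in that fit, against 2322 and 2135 with all libraries. The count filter was applied anew there, so the genes tested can differ from the 36, of which 4 gained and 3 lost the call. The test needed 0.652 CPM in at least 4 libraries, and 30 of the 36 genes reached this in all 8. Thbs1, Ltbp1, Lama2 and Fmod reached it in 4 of 4 libraries of the Bmal1+/+ group alone, Spon2 did so in the group labelled Bmal1-/- alone, and Spon1 reached it in 4 libraries of both groups together.

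**Figure D1:**
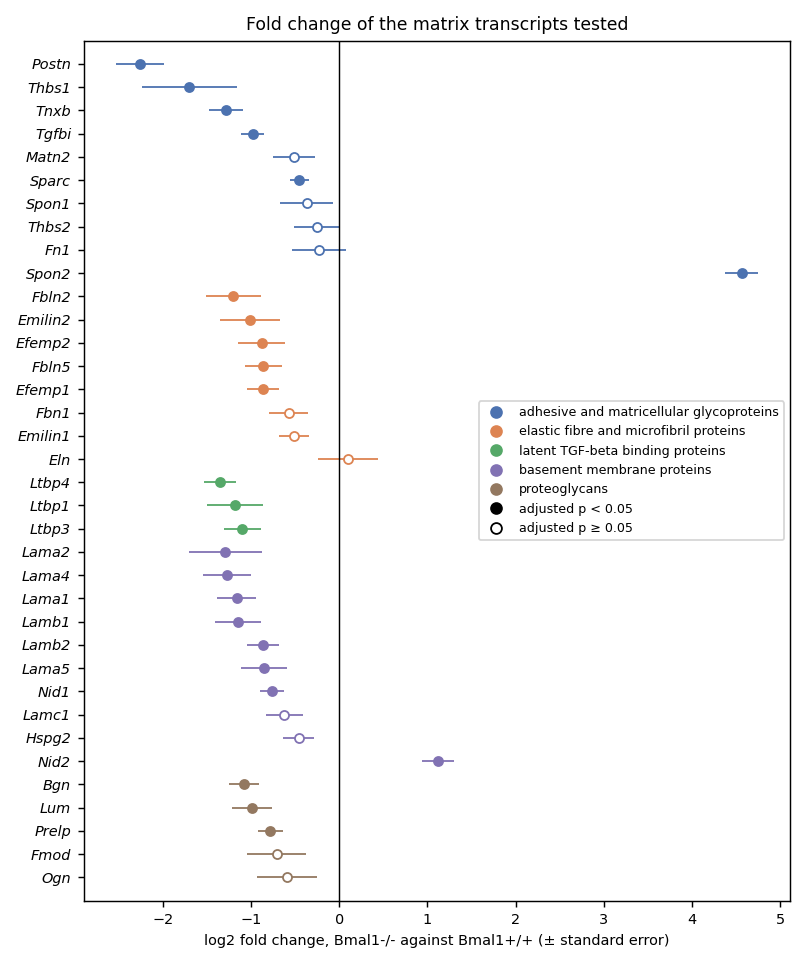
Log2 fold change (libraries labelled Bmal1-/- against Bmal1+/+) of the 36 matrix genes tested, with 1 standard error on each side, grouped by role and coloured by group. Filled points have an adjusted p below 0.05. All but 3 points lie left of 0, and Spon2 at 4.56 and Nid2 at 1.12 are the filled points to the right.

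In bulk RNA, fewer cells of a type and less RNA per cell cannot be told apart, and part of the stromal marker genes also fell. Over all genes tested, 16.2% fell and 14.9% rose. Of 8 stellate cell and pericyte markers, 4 fell (50%) and none rose. Their sum was 141 to 204 CPM in Bmal1+/+ libraries and 81.3 to 118 CPM in those labelled Bmal1-/-. Of 8 fibroblast markers, 6 were tested and 3 fell (50%), with sums of 36.3 to 58.4 CPM against 25.9 to 29.9 CPM. Endothelial markers fell for 7 of 10 (70%, 402 to 461 CPM against 281 to 366 CPM). Macrophage markers fell for 8 of 10 (80%, 556 to 708 CPM against 248 to 479 CPM). Of 4 smooth muscle markers, 3 were tested and 1 fell (33.3%, 7.17 to 16.0 CPM against 4.13 to 6.04 CPM). Markers that did not pass the test included Pdgfrb, Pdgfra, Col1a1 and Stab2 (log2 fold changes -0.36, -0.15, -0.01 and -0.06). The part of these marker lists in the matrix result was not tested. The 12 hepatocyte genes summed to 105509 to 114144 CPM against 65818 to 93670 CPM. Of these 1 fell (8.33%, Alb, albumin, log2 fold change -2.10), 4 rose (33.3%) and 7 did not pass the test. The median log2 fold change was 0.08 over genes that moved both ways. Per library, the median over the 36 matrix genes of the log2 difference from the Bmal1+/+ mean was -0.07, 0.13, -0.16 and 0.11 in Bmal1+/+ replicates 1 to 4. In replicates 1 to 4 labelled Bmal1-/- it was -0.70, -0.74, -1.07 and -0.72. All 4 labelled Bmal1-/- thus lay below all 4 of the other group.

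**Figure D2:**
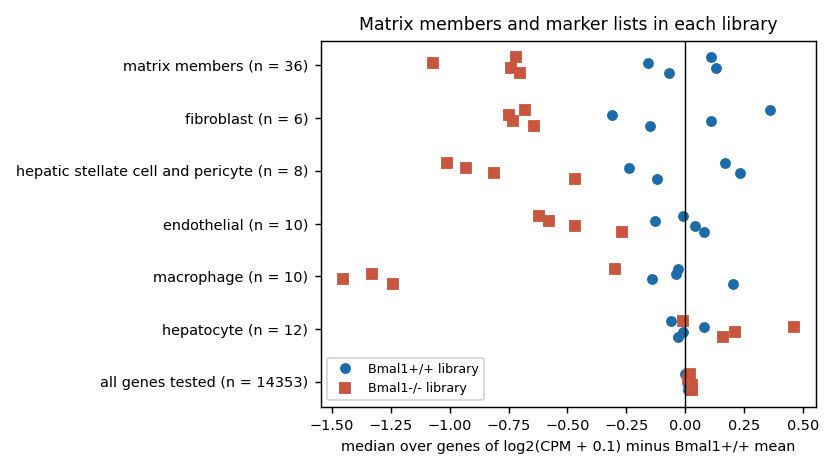
For each library, the median over the genes of a list of log2(CPM + 0.1) minus the mean of the Bmal1+/+ libraries, for the matrix genes, 5 marker lists and all genes tested. The matrix genes of the libraries labelled Bmal1-/- lie between -1.07 and -0.70. In the same libraries the fibroblast, stellate cell, endothelial and macrophage markers also lie to the left, while the medians of all genes tested stay near 0.

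Replicates differed more for some matrix genes than for others. The coefficient of variation across the 36 genes had a median of 19.3% in the Bmal1+/+ group, from 3.85% for Nid1 to 48.3% for Lama2. In the group labelled Bmal1-/- the median was 22.8%, from 5.2% for Matn2 to 75.0% for Thbs1. Replicate 3 labelled Bmal1-/- was the lowest of its group for 21 of the 36 genes, and Bmal1+/+ replicate 3 was the lowest of its group for 18. The library view of these genes shows the same direction in each library labelled Bmal1-/- for the larger changes. Among the smaller ones, Fn1, Thbs2, Eln, Spon1, Ogn and Fmod had mixed directions.

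**Figure D3:**
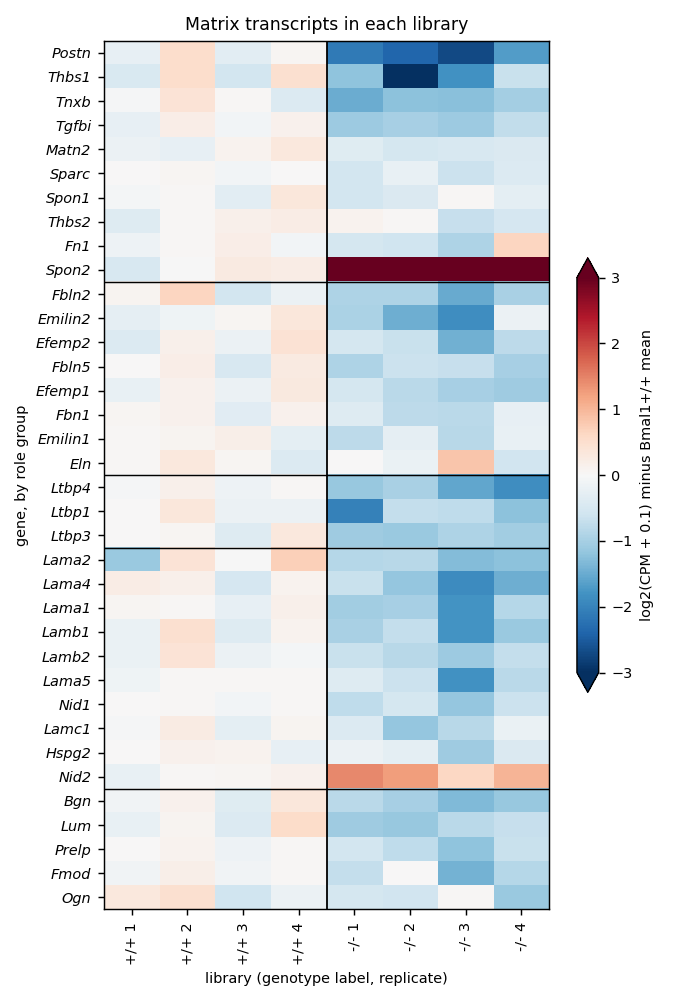
Each cell gives log2(CPM + 0.1) of a matrix gene in a library minus the mean of the Bmal1+/+ libraries, with genes in role groups divided by horizontal lines and the genotype labels divided by the vertical line. Colour runs from blue (lower) to red (higher), and values beyond 3 in either direction (Spon2, and Thbs1 in 1 library) take the end colour. Rows are mostly blue on the right side, with Spon2 and Nid2 red in all 4 libraries and Fn1 red in replicate 4 alone.

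Levels can be compared between genes only per length, so the deposited FPKM values are used for this. Among the 36 genes tested, the lengths these values imply ran from 2.23 kb for Efemp1 to 18.7 kb for Lama2. For Fn1 the length was 18.1 kb. Whether these lengths match the transcripts present was not tested, so ranks and shares of genes hold only for these lengths. Fn1 had the highest level by far, at 101 ± 11.3 FPKM in Bmal1+/+ libraries and 87.3 ± 45.9 FPKM in those labelled Bmal1-/- (SD, n = 4 each). It made up 55.6 to 64.9% of the summed FPKM of the 46 genes in Bmal1+/+ libraries, 59.3 to 59.9% in replicates 1 to 3 labelled Bmal1-/- and 78.2% in replicate 4. Prelp, Bgn, Sparc, Ltbp4 and Tgfbi followed, with means over all 8 libraries between 5.55 and 8.93 FPKM. The order among these 5 differed between the labels. Ltbp4 was at 8.24 ± 0.607 FPKM and Sparc at 7.32 ± 0.224 FPKM (SD, n = 4) in Bmal1+/+ libraries but at 3.32 ± 0.975 and 5.47 ± 0.750 FPKM in the others. Summed FPKM without Fn1 was 67.5, 75.4, 63.0 and 74.6 in Bmal1+/+ replicates 1 to 4 and 48.2, 46.9, 36.5 and 43.4 in those labelled Bmal1-/-, with no overlap.

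**Figure D4:**
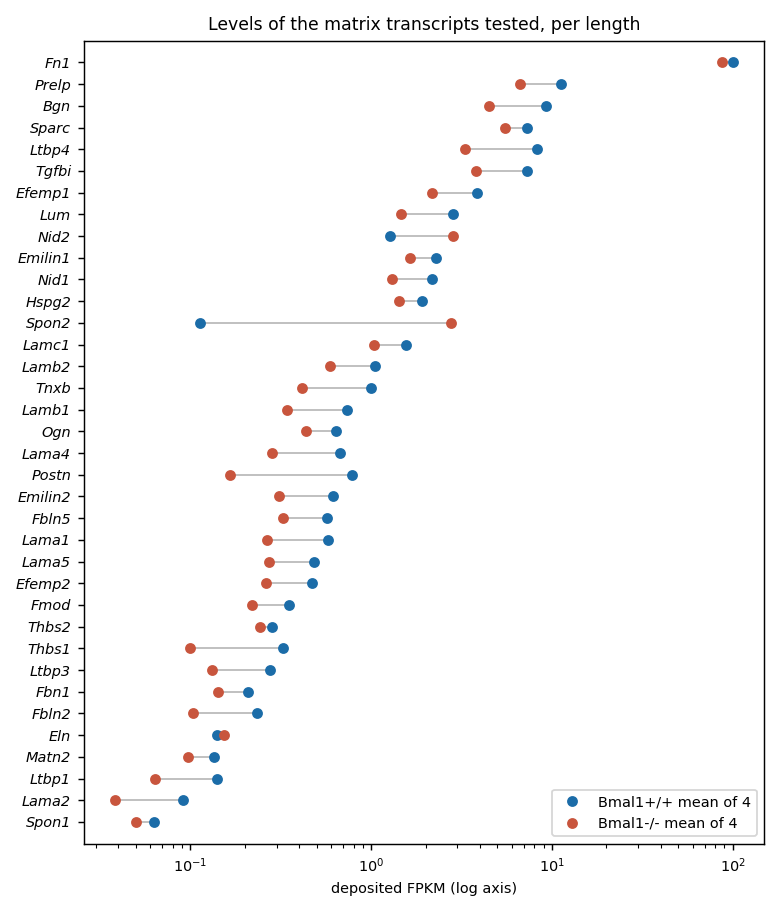
Mean deposited FPKM of 4 libraries per label for the 36 matrix genes tested, on a log axis, ordered by the mean over all 8 libraries. Fn1 stands at 101 and 87.3 FPKM, the other genes are at 11.2 FPKM or less, and the Bmal1+/+ mean is the higher one for all genes except Spon2, Nid2 and Eln.

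Among the adhesive and matricellular glycoproteins, 10 of 12 genes were tested, with a median log2 fold change of -0.48. Of these, 5 fell (50%, against 16.2% of all genes tested): Postn, Thbs1, Tnxb, Tgfbi and Sparc. Only 1 rose, Spon2 (10%, against 14.9%), and 4 did not pass the test. Values of single libraries are normalized CPM in the order of replicates 1 to 4, first of the Bmal1+/+ group and then of the group labelled Bmal1-/-. Postn (periostin, chr3:54361109-54391037 of GRCm38, plus strand), a matricellular protein made by activated fibroblasts, read 7.81, 13.4, 7.51 and 9.73 against 2.06, 1.73, 1.35 and 2.84. The highest library labelled Bmal1-/- was well below the lowest Bmal1+/+ library, and the log2 fold change of -2.26 (standard error, SE, 0.27, adjusted p = 0.00029) was the largest fall of the 36. The 250 bases before a RefSeq start of Postn (chr3:54360857-54361106, GRCm38.p6, plus strand) are shown because this gene had the largest fall, with the TATA box letters TATAAA in capitals, whose first base is 26 bases before the start.
Postn: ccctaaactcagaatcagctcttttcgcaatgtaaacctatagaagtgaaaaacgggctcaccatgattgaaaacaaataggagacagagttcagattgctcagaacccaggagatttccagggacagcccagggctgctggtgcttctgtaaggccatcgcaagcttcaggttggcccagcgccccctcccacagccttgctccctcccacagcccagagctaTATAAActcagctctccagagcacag

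Tgfbi, a TGF-beta-induced adhesion protein, read 34.7, 47.7, 38.7 and 45.4 CPM against 19.4, 20.7, 19.5 and 24.8 CPM. Its groups were far apart, with a log2 fold change of -0.98 (SE 0.13, adjusted p = 0.00062). Tnxb, which encodes tenascin X, a protein that links collagen fibrils, read 13.3, 18.4, 14.0 and 10.4 CPM against 4.80, 5.81, 5.68 and 6.77 CPM. It also fell without overlap (log2 fold change -1.28, SE 0.19, adjusted p = 0.001). Sparc, a collagen-binding matricellular protein, read 38.9, 40.3, 36.4 and 39.0 CPM against 26.4, 33.0, 24.6 and 29.2 CPM. This was a small fall beyond a tight spread (log2 fold change -0.45, SE 0.11, adjusted p = 0.012). Thbs1, thrombospondin 1, which can activate latent TGF-beta, was low. It read 1.44, 2.94, 1.34 and 2.83 CPM against 0.810, 0.0691, 0.497 and 1.22 CPM, where 0.0691 CPM is 1 count, under the floor of 3. Its log2 fold change of -1.70 (SE 0.54, adjusted p = 0.039) passed the test with all 8 libraries, and the adjusted p was 0.052 to 0.099 when any of Bmal1+/+ replicates 2 and 4 or of replicates 1, 2 and 3 labelled Bmal1-/- was left out.

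Spon2 (spondin 2, chr5:33198184-33218455, minus strand), a secreted protein of the F-spondin family, stood alone in its group. It read 0.481, 0.703, 0.872 and 0.834 CPM in Bmal1+/+ libraries, from 8 to 15 counts, and 18.4, 15.6, 17.3 and 17.7 CPM in those labelled Bmal1-/-, from 225 to 295 counts. The 4 higher libraries differed little among themselves, and the log2 fold change was 4.56 (SE 0.19, adjusted p = 6.9e-07), a 23.6-fold difference. Spon1, the related F-spondin, was at 0.536 to 0.889 CPM (8 to 16 counts) against 0.436 to 0.710 CPM (7 to 10 counts). It did not pass the test (log2 fold change -0.37, adjusted p = 0.39). The ratio of Spon2 to Spon1 in FPKM was thus 1.85 ± 0.668 in Bmal1+/+ libraries and 56.7 ± 12.6 in the others (SD, n = 4). Both ratios rest on the low counts of Spon1, and the first also on those of Spon2.

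Fn1 (fibronectin, chr1:71585520-71653200, minus strand) read 1655, 1891, 2092 and 1730 CPM against 1268, 1210, 961 and 2859 CPM. Replicates 1 to 3 labelled Bmal1-/- were below every Bmal1+/+ library and replicate 4 was above every one. With all libraries the log2 fold change was -0.23 (SE 0.31, adjusted p = 0.61), and without replicate 4 labelled Bmal1-/- it was -0.68 (SE 0.14, adjusted p = 0.0058). In that library the 9 acute phase genes summed to 36923 CPM against 2220 to 4288 CPM in the other 3 of its group, and the 12 hepatocyte genes to 93670 CPM against 65818 to 68168 CPM. Their part in the Fn1 value was not tested. Thbs2, another thrombospondin, had a log2 fold change of -0.25 (adjusted p = 0.50). Matn2, a matrilin that bridges matrix filaments, had -0.51 (adjusted p = 0.14), although its 4 libraries labelled Bmal1-/- were all below the other group, at 0.830 to 0.935 CPM against 1.02 to 1.56 CPM.

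**Figure D5:**
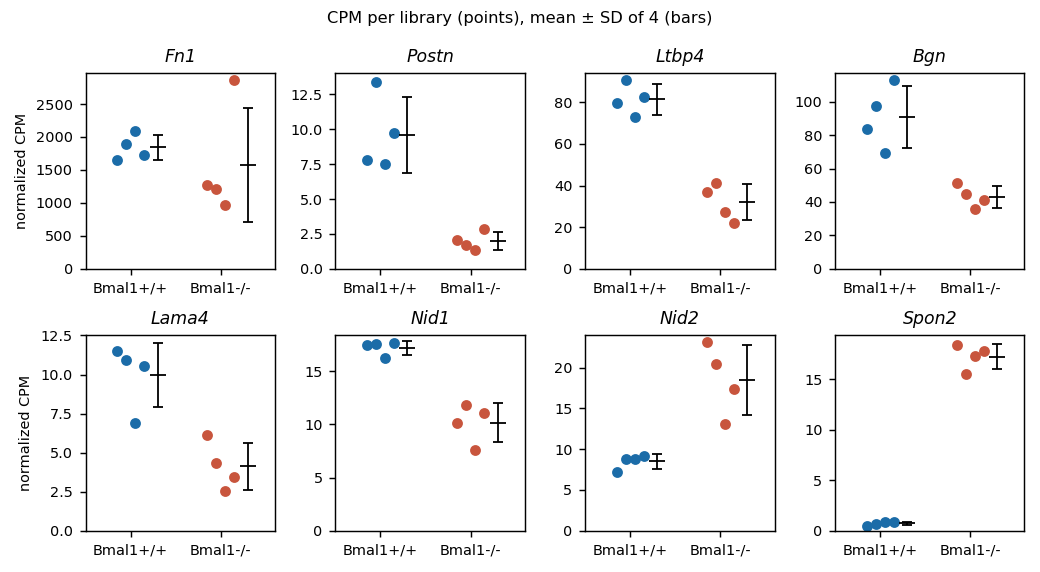
Normalized CPM (vertical axis, linear from 0) of 8 matrix genes in each library (points), with the mean and SD of 4 libraries per label (bars). Postn, Ltbp4, Bgn, Lama4 and Nid1 are lower in all 4 libraries labelled Bmal1-/-, Nid2 and Spon2 are higher in all 4, and for Fn1 replicate 4 labelled Bmal1-/- lies at 2859 CPM above all other libraries.

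Of the 13 elastic fibre and microfibril genes, 8 were tested, with a median log2 fold change of -0.86. Among them 5 fell (62.5%, against 16.2% of all genes tested): Fbln2, Emilin2, Efemp2, Efemp1 and Fbln5. None rose, against 14.9% of all genes, and 3 did not pass the test. All 4 tested members of the fibulin family, which join elastin to microfibrils and to cells, fell. Efemp1, fibulin 3, had the highest level of them and read 7.33, 9.39, 7.64 and 10.6 CPM against 5.98, 4.91, 4.26 and 4.06 CPM. It fell without overlap (log2 fold change -0.86, SE 0.18, adjusted p = 0.0063). Fbln2 read 2.34, 3.51, 1.48 and 1.95 CPM against 1.12, 1.11, 0.710 and 1.08 CPM. Its groups did not overlap either (log2 fold change -1.20, SE 0.31, adjusted p = 0.016). Fbln5, needed for elastic fibre assembly, had -0.86 (adjusted p = 0.012). Efemp2, fibulin 4, which brings lysyl oxidase to elastin, had -0.88 (adjusted p = 0.032), and its adjusted p was 0.053 to 0.082 when Bmal1+/+ replicate 2 or 4 or any of replicates 2, 3 and 4 labelled Bmal1-/- was left out.

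Emilin2, a microfibril-associated glycoprotein, read 4.75, 5.18, 5.97 and 7.23 CPM against 2.93, 2.00, 1.49 and 5.01 CPM. Replicate 4 labelled Bmal1-/- overlapped the other group, and the log2 fold change of -1.01 (SE 0.34, adjusted p = 0.045) was at the threshold. Leaving out any library other than that one gave an adjusted p of 0.060 to 0.11, and leaving it out gave a log2 fold change of -1.42. Emilin1, which limits TGF-beta processing in vessel walls, read 19.1, 19.6, 21.2 and 15.2 CPM against 10.8, 15.6, 10.5 and 16.0 CPM. It missed the threshold with overlapping groups (log2 fold change -0.51, SE 0.17, adjusted p = 0.051), and passed it at 0.028 to 0.049 without Bmal1+/+ replicate 4 or without replicate 2 or 4 labelled Bmal1-/-. Fbn1, fibrillin 1, the backbone of microfibrils, had -0.57 (adjusted p = 0.074), and without replicate 4 labelled Bmal1-/- it had -0.69 and passed the threshold, at 0.050 after rounding. Eln, elastin itself, was at 1.00 to 1.73 CPM against 0.880 to 2.49 CPM, and its fitted difference of 0.10 (SE 0.34, adjusted p = 0.85) was smaller than its error.

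All 3 LTBPs that could be tested fell, by 1.10 to 1.35 on the log2 scale, with a median log2 fold change of -1.18. Of all genes tested, 16.2% fell. Ltbp1 passed the count filter through the Bmal1+/+ group alone, the group where it is higher. Ltbp4 (chr7:27305136-27337692, minus strand), which targets latent TGF-beta to elastic fibres, made up 94.6 ± 0.627% of the summed FPKM of the 4 LTBPs in Bmal1+/+ libraries and 92.3 ± 3.36% in the others (SD, n = 4). It read 79.7, 90.5, 72.7 and 82.5 CPM against 36.8, 41.4, 27.5 and 22.1 CPM. The gap between the groups was wide, and the log2 fold change was -1.35 (SE 0.18, adjusted p = 0.00064). Ltbp3 read 3.79, 3.90, 2.82 and 4.67 CPM against 1.75, 1.66, 1.92 and 1.76 CPM. Its lower libraries were close to one another (log2 fold change -1.10, SE 0.21, adjusted p = 0.0034). Ltbp1, the form that binds fibrillin microfibrils, read 2.34, 3.00, 2.08 and 2.06 CPM against 0.499, 1.38, 1.35 and 0.948 CPM. It fell without overlap (log2 fold change -1.18, SE 0.32, adjusted p = 0.018), although without Bmal1+/+ replicate 2 the adjusted p was 0.054.

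All 10 basement membrane genes were tested, with a median log2 fold change of -0.85. Among them 7 fell (70%, against 16.2% of all genes tested): the laminin chains Lama1, Lama2, Lama4, Lama5, Lamb1 and Lamb2, and Nid1. Only 1 rose, Nid2 (10%, against 14.9%), and 2 did not pass the test. The pair of nidogens, which link laminin to collagen IV, moved in opposite directions. Nid1 (chr13:13437551-13512269, plus strand) read 17.4, 17.5, 16.2 and 17.7 CPM against 10.2, 11.8, 7.60 and 11.0 CPM. Nid2 (chr14:19751265-19811787, plus strand) read 7.21, 8.76, 8.85 and 9.23 CPM against 23.2, 20.4, 13.1 and 17.3 CPM. Neither gene overlapped between groups. The log2 fold change was -0.76 for Nid1 (SE 0.14, adjusted p = 0.0035) and 1.12 for Nid2 (SE 0.18, adjusted p = 0.0015). The ratio of Nid2 to Nid1 in FPKM was 0.494, 0.597, 0.651 and 0.623 in Bmal1+/+ replicates 1 to 4, and 2.73, 2.06, 2.06 and 1.88 in those labelled Bmal1-/-. Nid1 was thus the more abundant nidogen transcript in every Bmal1+/+ library and Nid2 in every library of the other group. An exon of Nid2 overlaps Rtraf on the opposite strand, and strand use in counting is not stated. Rtraf had 45.6 ± 4.76 CPM against 60.3 ± 7.10 CPM (SD, n = 4; log2 fold change 0.40, adjusted p = 0.026). Without replicate 1 labelled Bmal1-/- the fold change of Nid2 was 1.00, which left Spon2 as the only matrix gene higher by the study's criterion.

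Laminin alpha chains carry the sites for integrins and dystroglycan. The 4 in this set fell, while Lama3, a chain outside the set given further on, rose. Lama2 passed the count filter through the Bmal1+/+ group alone, where it is higher, and missed the threshold in 11 of 16 alternative fits. Lama4, the chain of vessel basement membranes, read 11.5, 10.9, 6.91 and 10.6 CPM against 6.11, 4.35, 2.56 and 3.45 CPM. Its highest value in a library labelled Bmal1-/- lay just below its lowest Bmal1+/+ value (log2 fold change -1.27, SE 0.27, adjusted p = 0.006). Lama1, the chain of early epithelial basement membranes, read 6.07, 6.01, 4.96 and 6.56 CPM against 2.81, 2.90, 1.63 and 3.18 CPM. These groups did not overlap (log2 fold change -1.16, SE 0.22, adjusted p = 0.0035). Lama2, the chain of muscle and nerve, read 0.661, 2.11, 1.54 and 2.61 CPM against 0.810, 0.830, 0.568 and 0.609 CPM. Bmal1+/+ replicate 1 overlapped the other group (log2 fold change -1.29, SE 0.41, adjusted p = 0.037). Leaving out any library but that one gave an adjusted p of 0.059 to 0.10. Lama5 had a log2 fold change of -0.85 (adjusted p = 0.036), and 6 of the 8 libraries, all but replicates 1 and 3 labelled Bmal1-/-, gave an adjusted p of 0.056 to 0.075 when left out.

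The shares of these 4 alpha chains among themselves overlapped between the groups. Of their summed FPKM, Lama3 not included, Lama4 took 30.3 to 41.7% in Bmal1+/+ libraries and 27.3 to 37.5% in the others. For Lama1 the shares were 30.6 to 32.4% against 25.3 to 36.9%, and for Lama5 24.0 to 32.3% against 26.5 to 33.3%. Lama2 took 1.90 to 6.96% against 3.81 to 6.11%. Lamb1, the common beta chain, read 7.93, 12.7, 6.97 and 9.84 CPM against 4.61, 5.53, 2.56 and 4.13 CPM. It fell without overlap (log2 fold change -1.15, SE 0.26, adjusted p = 0.0085). Lamb2, the beta chain of vessel wall and synapse, had -0.86 (adjusted p = 0.0067). Lamc1, the gamma chain shared by most laminins, had -0.62 (adjusted p = 0.051) and passed the threshold at 0.018 to 0.045 without Bmal1+/+ replicate 3 or replicate 4 labelled Bmal1-/-. Hspg2, which encodes perlecan, the heparan sulfate proteoglycan of basement membranes, read 33.3, 36.0, 35.5 and 27.9 CPM against 29.4, 26.8, 15.8 and 24.5 CPM. It did not pass the test (log2 fold change -0.46, SE 0.18, adjusted p = 0.081), and its groups overlapped by 1 library each.

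Of the 7 proteoglycans, 5 were tested, with a median log2 fold change of -0.78. Among them 3 fell (60%, against 16.2% of all genes tested): Bgn, Lum and Prelp. None rose, against 14.9% of all genes, and 2 did not pass the test. All 5 tested are small leucine-rich proteoglycans. Bgn (biglycan, chrX:73483602-73495933, plus strand), which binds collagen and TGF-beta, read 83.8, 97.5, 69.4 and 113 CPM against 51.1, 44.5, 35.8 and 41.0 CPM. The groups were clearly apart (log2 fold change -1.08, SE 0.17, adjusted p = 0.0012). Bgn lies on the X chromosome, and Xist was high in the Bmal1+/+ libraries alone. Prelp, which anchors basement membranes to the tissue below, read 50.8, 53.7, 44.9 and 51.7 CPM against 34.2, 29.4, 21.6 and 31.4 CPM. It fell without overlap (log2 fold change -0.78, SE 0.14, adjusted p = 0.0029). Lum, lumican, a regulator of collagen fibril width, read 5.77, 7.16, 5.10 and 10.1 CPM against 3.18, 3.04, 3.84 and 4.13 CPM. This fall also left no overlap (log2 fold change -0.99, SE 0.23, adjusted p = 0.011). Fmod, fibromodulin, had a log2 fold change of -0.71 (adjusted p = 0.13), and without replicate 2 labelled Bmal1-/- its adjusted p was 0.037. Ogn, osteoglycin, had -0.59 (adjusted p = 0.22).

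The 10 genes that were not tested had at most 37 counts in any library. They were Tnc and Thbs3 among the adhesive proteins, Fbn2, Fbln1, Mfap2, Mfap4 and Mfap5 of elastic fibres, Ltbp2, and the proteoglycans Vcan and Aspn. In 6 of them no library passed 10 counts, and Fbn2 and Mfap5 never passed the floor of 3. Tnc and Vcan, which encode tenascin C and versican, proteins abundant in many tumor stromas, had at most 10 and 7 counts. With no filter on low counts, 0 of the 10 had an adjusted p below 0.05 by edgeR and 1 had an unadjusted p below 0.05. That gene was Fbln1 (log2 fold change -2.50, adjusted p = 0.050, unadjusted p = 0.0071), with 84 counts in the 4 Bmal1+/+ libraries and 13 in the other 4.

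Exons of 18 of the 46 genes overlap an exon of another gene, always on the opposite strand, and 12 of these were tested and 8 passed the test. Partners measured at more than 1 CPM included those of Nid2 (Rtraf), Efemp2 (Mus81), Tnxb (Cyp21a2-ps), Thbs3 (Mtx1) and Mfap4 (Mapk7). For Efemp2 and Tnxb the partner moved up while the matrix gene moved down: Mus81 had a log2 fold change of 0.50 (adjusted p = 0.035) and Cyp21a2-ps of 1.90 (adjusted p = 0.0022). Without strand the reads of such pairs cannot be told apart, so the values of matrix genes with such a partner are less certain than those of genes without one.

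Receptors through which cells bind these proteins were counted in the same fit. Of 26 integrins, syndecans and other receptors, 22 were tested, 6 fell (27.3%, against 16.2% of all genes tested) and 1 rose (4.55%, against 14.9%), with a median log2 fold change of -0.24. Cd36, a thrombospondin receptor, was lowest (log2 fold change -2.17, adjusted p = 0.00055), followed by Cd44, the hyaluronan receptor (-1.58, adjusted p = 0.0064), and Itga4, a fibronectin-binding integrin chain also found on leukocytes (-1.40, adjusted p = 0.0012). Itga9 and the syndecans Sdc1 and Sdc3 also fell. Itga5, the alpha chain of the classical fibronectin receptor, rose from 14.3 ± 2.05 to 29.8 ± 7.75 CPM (SD, n = 4; log2 fold change 1.06, adjusted p = 0.0023). Its partner Itgb1 was at 199 ± 9.21 against 232 ± 5.48 CPM (adjusted p = 0.092).

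Of 32 other matrix genes outside the 46, 19 were tested, 11 fell (57.9%, against 16.2% of all genes tested) and 4 rose (21.1%, against 14.9%), with a median log2 fold change of -0.53. Sparcl1, the closest relative of Sparc, had the lowest value (log2 fold change -1.95, adjusted p = 0.0029), and the basement membrane protein Hmcn1 and the glycoprotein Ecm1 also fell (-1.29 with adjusted p = 0.015, and -1.06 with adjusted p = 0.002). Dcn, decorin, the relative of Bgn, fell from 119 ± 22.9 to 73.1 ± 1.18 CPM (SD, n = 4; adjusted p = 0.0038). The 4 that rose were Npnt, Omd, Lama3 and Vtn. Omd, a small proteoglycan whose gene lies beside Ogn and Aspn on chromosome 13, had 2 to 5 counts in each Bmal1+/+ library and 42 to 120 in the others. Lama3, another laminin alpha chain, went from 1.14 ± 0.586 to 5.58 ± 0.917 CPM (SD, n = 4; log2 fold change 2.30, adjusted p = 0.0013). In FPKM it was at 0.105 ± 0.0538 against 0.525 ± 0.0947 (SD, n = 4), beside 0.581 ± 0.0598 against 0.264 ± 0.0684 for Lama1. Vtn, vitronectin, a plasma protein made by hepatocytes, went from 1635 ± 105 to 2789 ± 798 CPM (SD, n = 4; log2 fold change 0.77, adjusted p = 0.015).

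BMAL1 with CLOCK binds the E-box letters CACGTG, and the related E′-box CACGTT is also used by clock factors. In the 250 bases before each RefSeq start (GRCm38.p6), on both strands, CACGTG was found for 1 of the 32 matrix genes that matched the sequence table (3.12%) and for 6.86% of 27025 genes. CACGTT was found for 1 of the 32, Emilin2, and for 4.50% of all genes. TATAAA, shown above for Postn, was found for 5 of the 32 (15.6%) and for 14.3% of all genes. The other 14 genes, which include Spon2, Nid2 and Fn1, were not matched. The gene with CACGTG was Fbln1, one of those with too few counts to be tested, and its window (chr15:85205699-85205948, plus strand) is shown because it holds the single E-box of the set, in capitals, with the first base 81 bases before the start.
Fbln1: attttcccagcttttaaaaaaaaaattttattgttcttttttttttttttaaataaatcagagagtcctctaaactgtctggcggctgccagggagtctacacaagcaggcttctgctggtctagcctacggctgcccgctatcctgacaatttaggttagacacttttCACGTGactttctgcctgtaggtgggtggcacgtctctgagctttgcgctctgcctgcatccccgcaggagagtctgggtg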

How the data were processed

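RNA of 8 libraries labelled as stromal vascular fraction, 4 per genotype label, was analysed. The replicate numbers come from the sample descriptions. Per the study's methods the authors aligned paired-end reads to GRCm38 with HISAT2 and counted them per gene with StringTie, while the submitters' processing notes name CASAVA 1.8 and TopHat2 2.0.6. The authors deposited whole-number counts per gene, not normalized, and FPKM values. For 100% of 12597 genes with at least 10 counts in every library, the deposited FPKM was, within 1%, the count over the library total over 1 length per gene, so FPKM carries no other scaling and served for levels and 1 alternative. Strand use is not stated, so reads of genes that overlap on opposite strands may be mixed. The values of 1 overlapping gene are not reported here.

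Symbols and coordinates come from GENCODE annotation of GRCm38 (99.4% of 55487 identifiers matched) and promoter windows from RefSeq. The matrix genes and all gene lists were chosen with earlier results of these data known. From the counts, CPM with TMM factors, log2 fold changes and p-values (quasi-likelihood test, Benjamini-Hochberg adjustment over 14353 genes passing filterByExpr, prior count 0.125, common dispersion 0.0506) came from edgeR 4.0.16 in R 4.3.3. The standard error (SE) is the size of the log2 fold change over the root of F. Values per library are given for 24 genes: those with an adjusted p below 0.05 and an absolute log2 fold change above 1, and the 3 with the highest FPKM in each of the 5 role groups. Pairs of libraries of 1 group differed with a chi-square per degree of freedom of at least 18. Scripts were tested on simulated data. Alternatives used DESeq2 1.42.0, limma 3.58.1, upper-quartile scaling, library size only, the likelihood ratio test, 2 other filters, each library left out and the replicate number as a block. Figures were drawn with matplotlib 3.10.9.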

Additional observations from a re-analysis of the deposited data

Results flagged for a closer look

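In 72 groups of 4 libraries (36 matrix genes in each label), 3 held a library whose gap to the nearest other one, as a share of the group's range, was over Dixon's critical value, which chance passes in about 1 of 20 groups. Fn1 was at 2859 CPM in replicate 4 labelled Bmal1-/-, with the other 3 at 961 to 1268 CPM. Fbln2 was at 0.710 CPM in replicate 3 labelled Bmal1-/-, with the other 3 at 1.08 to 1.12 CPM. Lama5 was at 5.53 CPM in Bmal1+/+ replicate 1, with the other 3 at 6.17 to 6.22 CPM.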

How the results depend on the processing

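Over 17 alternatives, 19 of the 25 matrix genes that passed the test passed it in each that tested them (16 for Spon2), 6 missed it in at least 1 (Thbs1, Efemp2, Emilin2, Ltbp1, Lama2 and Lama5), and none of the 25 changed sign. Of the 11 others, 5 passed in at least 1 alternative. The number of lower genes was 17 to 25 and of higher genes 2 when 1 library was left out and the filter applied anew. By the study's criterion these were 10 to 16 and 1 to 2. In the same fits the median log2 fold change was -0.91 to -0.77, receptors that changed numbered 7 to 10 and other matrix genes 11 to 14. Requiring 10 counts in every library removed Spon2 and left 1 higher gene by either rule. With DESeq2, 11 receptors changed in place of 7. With limma on log2 of FPKM plus 0.1, 6 genes were lower by the criterion and the median was -0.68, on a scale that shrinks the fold changes of low genes. Eln, with -0.27 to 0.28 when 1 library was left out, changed sign without Bmal1+/+ replicate 4 (-0.04) and without replicate 3 labelled Bmal1-/- (-0.27); the cause was not tested. The replicate numbers are shared by the groups, but libraries with the same number did not deviate together (correlations -0.064, 0.063, 0.043 and 0.036, and 1 of the 4 numbers was its own best match). With the number as a block, 19 genes were lower and 2 higher, with a median of -0.85, and Thbs1, Efemp2, Lama2 and Lama5 missed the threshold. The median log2 fold change of all genes was 0.02, and 0.01 to 0.05 under the other scalings. Depth limits the 10 genes that were not tested and those under about 1 CPM.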

Other observations

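Lists of other cell types gave these counts beside the matrix genes. Of 5 lymphocyte genes, 4 were tested and 1 fell (25.0%, against 16.2% of all genes tested), with sums of 22.2 to 27.8 CPM in Bmal1+/+ libraries and 5.82 to 15.5 CPM in those labelled Bmal1-/-. Of 7 epithelial genes, 4 were tested and 2 fell (50%, against the same 16.2%), with sums of 185 to 229 CPM against 209 to 354 CPM. The 9 acute phase genes differed within the group labelled Bmal1-/-: the median over them of the log2 difference from the Bmal1+/+ mean was -0.99, -1.67 and -1.54 in replicates 1 to 3 and 3.76 in replicate 4. Their fitted median log2 fold change of 1.96, and the 3 that were higher by the criterion of the study, come from a group mean that includes replicate 4.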
